A study of Mus musculus with 2 samples.

Results

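The 32 genes described here encode the integrins and hemidesmosome proteins that hold epithelial cells to the basement membrane, the laminins and collagens of that membrane, and other matrix proteins. They were chosen by name, out of 21900 protein-coding genes of the gene table, and were read through chromatin contacts. A gene counted as being at a contact where either of its annotated ends lay within 10 kb of an anchor of an enriched pixel. A pixel is a pair of 5 kb bins on 1 chromosome that were ligated together more often than their surroundings.

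The contacts come from Hi-C, in which chromatin is crosslinked, cut and religated so that neighbouring stretches of DNA end up in 1 read pair. The cells were primary hair matrix keratinocytes taken on postnatal day 4.5, the proliferating epithelium of the hair bulb that forms the hair shaft. The WT library came from mice labelled wild type, and the DKO library from mice labelled as lacking both Tet2 and Tet3, with Krt14-Cre. TET2 and TET3 oxidise 5-methylcytosine, and a Krt14-driven Cre acts in basal epithelial cells and all that derive from them, and is not active in dermal cells. Whether the WT mice carried the Cre or the floxed alleles, and how many mice were pooled, is not given in the labels. Each genotype had 1 library. No p-value or replicate error can be given, and a difference between the lists compares 2 libraries.

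Integrins are pairs of an alpha and a beta chain that bind matrix proteins outside the cell. In basal keratinocytes α6β4 binds laminin-332 and is tied to keratin filaments through plectin and dystonin, the complex called the hemidesmosome, while β1 integrins act through actin. The basement membrane itself is a sheet of laminin and type IV collagen networks linked by nidogen and perlecan. In the follicle it separates the epithelium from the dermal papilla and the dermal sheath.

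The WT list held 5811 pixels in 2902 contacts and the DKO list 4872 pixels in 2641 contacts, where neighbouring pixels within 20 kb at both anchors form 1 contact. At the 1940 pixels in both lists, expected counts in DKO were 0.973 of those in WT, the one measure of relative depth. Neither list records pixels that were not called, so a gene without a pixel is not shown to lack a contact. The lowest observed count of a pixel was 10 and the median 18 in each list, which sets the precision. Enrichment means observed over expected, where the expected count comes from a ring of bins around the pixel (the donut), with an exact 95% Poisson interval that covers counting error only. Contacts do not measure transcripts, so the labelled cell type could not be checked by expression. Of the keratinocyte markers 4 of 10 were at a pixel in either list (Dlx3, Msx2, Krt14 and Krt25). The counts were 3 of 14 for fibroblasts and dermal papilla (Col1a1, Col1a2 and Pdgfra), 3 of 9 for endothelium (Pecam1, Erg and Cdh5) and 2 of 8 for melanocytes (Pmel and Mitf). Of all protein-coding genes 28.3% were at a pixel in either list, and these small counts cannot tell cell types apart. The part of other cell types in the contacts below was not tested.

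Of the 32 genes, 10 were at a pixel in WT, where 21.2% of all protein-coding genes were, and 13 in DKO, where 20.1% were. The genes in both lists were Itga2, Itga3, Itgb4, Plec, Lama5, Sparc, Fbln2 and Thbs1, 8 in all, against 12.9% of all genes. Col7a1 and Tnc were at a pixel in WT alone, 2 members against 8.23% of all genes. Cd151, Lamc1, Fn1, Fras1 and Frem2 were at a pixel in DKO alone, 5 members against 7.13%. With gene ends inside the bin the order of the libraries turned, with 5 members in WT and 4 in DKO, and with at least 20 observed counts each list held 6. In either list 15 of 32 (46.9%, 95% binomial interval 29.1 to 65.3) were at a pixel, and 28.3% of all genes. The members were chosen by name with earlier results of these data known, and are not a random sample of genes. The interval is therefore no test against the share of all genes. The members are long genes, with a median of 73.1 kb against 17.2 kb for all genes. Among the 16 members of at least 73.1 kb, 2 were at a pixel in WT, 4 in DKO and 5 in either, while genes of that length had 20.1%, 18.2% and 26.2%. The count among the longer members in either list was thus near the share of all genes as long. Of the 15 members at a pixel 10 were among the shorter ones. The share of all genes under 73.1 kb was not computed, so that count has no like share beside it.

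**Figure D1:**
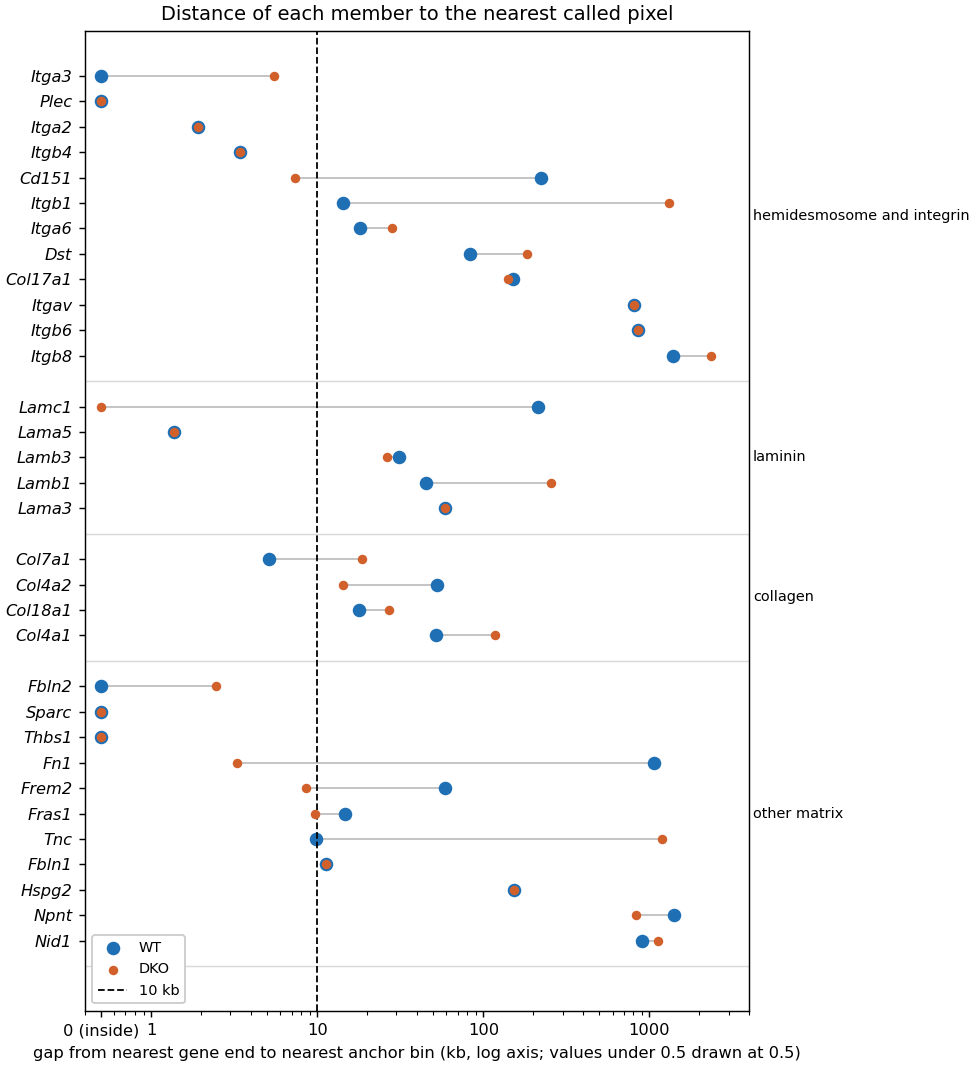
Gap in kb (log axis) between the nearest annotated end of each of the 32 genes and the nearest anchor bin of a pixel, for WT (blue, large) and DKO (orange, small), by class; gaps under 0.5 kb are drawn at 0.5. Points left of the dashed line at 10 kb are the 10 WT and 13 DKO members at a pixel, and Itgav, Itgb6, Itgb8, Nid1 and Npnt lie farthest to the right, away from any anchor in both libraries.

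The gap that decides membership was close to its limit for some genes. Just inside were Tnc at 9.79 kb in WT and Fras1 at 9.73 kb in DKO. Just outside were Fbln1 at 11.3 kb in both lists, Col4a2 at 14.3 kb in DKO, Itgb1 at 14.3 kb in WT and Fras1 at 14.7 kb in WT. Fras1 is therefore in DKO alone by a shift of 1 bin. The distances fell over a wide range, and 7 of the 17 genes without a pixel lay over 100 kb from an anchor in both lists (Itgav, Itgb6, Itgb8, Col17a1, Hspg2, Nid1 and Npnt).

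The contacts at members numbered 17 in WT (33 pixels, 95% interval 22.7 to 46.3) and 19 in DKO (31 pixels, 21.1 to 44.0). A contact was shared where a pixel of the other list lay within 2 bins at both anchors, which held for 12 of the 17 WT contacts (70.6%, 44.0 to 89.7). In DKO, 11 of the 19 were shared (57.9%, 33.5 to 79.8). Over all contacts the shares were 50.1% and 55.0%, inside both intervals. In 10 contacts of each list the matching pixels reached the same member in both. Median enrichment was 4.85 over member pixels in WT and 4.59 in DKO, beside 5.11 and 4.95 over all pixels. The order of the libraries at members turned with the horizontal expected count of the pixel caller (3.96 in WT and 4.17 in DKO), the vertical (3.61 and 3.81) and the highest of the 4 (3.39 and 3.51). Member contacts spanned 35 to 570 kb in WT with a median of 75 kb, and 35 to 575 kb in DKO with a median of 115 kb. The whole lists had medians of 115 kb and 100 kb, so that the order of the libraries was the opposite at members, with wide intervals (55 to 125 kb in WT and 50 to 190 kb in DKO).

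**Figure D2:**
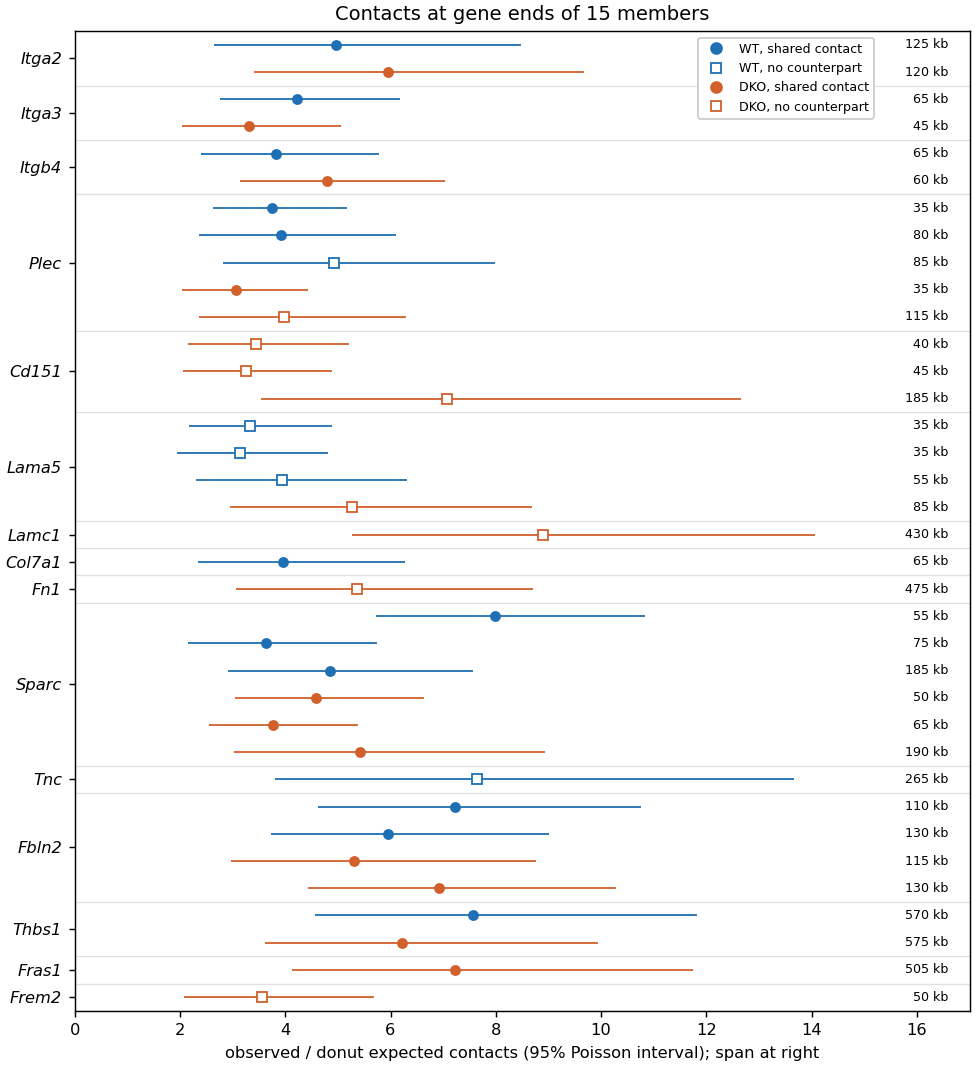
Observed over donut expected contacts at the member pixel with the most contacts in each contact, with 95% Poisson intervals, for the 15 members at a pixel; WT is blue and DKO orange, filled circles are shared contacts, open squares have no counterpart, and the span is at the right. Where a member has shared contacts in both libraries the intervals overlap. The contacts of Lama5, Cd151, Lamc1, Fn1, Tnc and Frem2 are all without a counterpart.

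Among the hemidesmosome and integrin genes, 4 of 12 were at a pixel in WT and 5 in DKO, and the 4 were the same genes. Itga2 encodes the α2 chain of a collagen receptor and lies on chromosome 13 (114833081 to 114932100). Its pixel had 13 contacts in WT over 125 kb (2.62 expected, enrichment 4.96, 2.64 to 8.49) and 16 in DKO over 120 kb (2.69 expected, 5.95, 3.40 to 9.67). The pixels differed by 1 bin at the far anchor and the intervals overlapped. The far anchor lay 1.92 kb from an end of Itga1 in WT and held that end in DKO. Itga1 encodes the α1 chain, another collagen-binding integrin subunit, so this contact joins neighbouring genes of 1 family. The end of Itga2 at the anchor, 1.92 kb away, was its 3′ end, and an end of Mocs2 lay within 10 kb of the same bin.

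Itga3, for the α3 chain that pairs with β1 as a laminin receptor, lies on chromosome 11 (95044475 to 95076844). Its strongest WT pixel held the 3′ end of the gene and had 26 contacts on 6.16 expected over 65 kb (4.22, 2.76 to 6.18). Another WT pixel of 18 contacts, 1 bin along at both anchors, reached to 5.12 kb from Dlx3, a homeobox gene of hair and epidermal differentiation. In DKO the contact was 1 pixel of 21 contacts over 45 kb (3.30, 2.05 to 5.05). Its near anchor lay inside Itga3, 5.53 kb from the 3′ end, and no protein-coding gene end lay within 10 kb of the far anchor. Pdk2 had an end in the same WT bin as the 3′ end of Itga3, and the data cannot assign the contact to 1 of them.

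Itgb4 encodes the β4 chain, which occurs only with α6 and anchors the hemidesmosome, on chromosome 11 (115974725 to 116008412). WT had 1 pixel of 22 contacts over 65 kb (3.82, 2.39 to 5.78). DKO had 3 pixels, of which that with the most contacts had 26 over 60 kb (4.80, 3.14 to 7.03). The pixel in both lists had 22 contacts in each, 5.76 expected in WT and 4.93 in DKO, and a DKO/WT ratio of enrichment of 1.17 (0.617 to 2.21). Its far anchor lay inside Sap30bp, 1.42 kb from an end of that gene, and 1.49 kb from Recql5, a DNA helicase gene. At the near anchor Galk1, for galactokinase, was closer to the bin than Itgb4, whose end was 3.41 kb away.

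Plec encodes plectin, the linker between β4 integrin and keratin filaments, on chromosome 15 (76170974 to 76231378). A short contact over 35 kb with both anchors at or inside the gene was in both lists, with 36 contacts in WT and 28 in DKO. Expected counts were 9.62 and 9.15, so that enrichment was 3.74 (2.62 to 5.18) and 3.06 (2.03 to 4.42), a ratio of 0.818 (0.481 to 1.38). The other contacts of Plec were within 10 kb of it in 1 list each. A WT contact over 80 kb led to Puf60 and Nrbp2 (19 contacts, 3.91, 2.35 to 6.11). The pixel of this WT contact with the most contacts lay outside the 10 kb limit and had 26 over 75 kb, at 4.60 times expected. In DKO the counterpart had at most 29 contacts over 75 kb (5.38, 3.60 to 7.73). It stopped 11.0 kb from Plec, just past the limit, so that both lists held this contact. To the other side, WT had a pixel over 85 kb near Exosc4 (16 contacts, 4.92, 2.81 to 7.98) and DKO one over 115 kb at Cyc1 and Sharpin (18 contacts, 3.98, 2.36 to 6.29), each without a counterpart. Sharpin encodes a ubiquitin ligase subunit whose loss inflames mouse skin. Parp10 had an end in the bin that holds an end of Plec.

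Cd151, the tetraspanin that accompanies α3β1 and α6β4, is a gene of 4.12 kb on chromosome 7 (141467362 to 141471481). It had 3 single-pixel contacts in DKO and none in WT, where the nearest anchor was 224 kb away. They had 23 contacts over 45 kb (3.25, 2.06 to 4.88), 22 over 40 kb (3.44, 2.16 to 5.21) and 11 over 185 kb (7.08, 3.53 to 12.7). The first reached Gatd1 and the last a bin 9.61 kb from the gastric mucin gene Muc6. In each of the 3, ends of 3 other genes lay closer to the anchor than Cd151, among them Pnpla2 and Tspan4.

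Itga6, Itgav, Itgb1, Itgb6, Itgb8, Col17a1 and Dst had no pixel at an end. Itga6, the partner of Itgb4, had an anchor inside the gene in both lists, at contacts over 225 kb in WT (19 contacts, 4.68, 2.82 to 7.31) and 220 kb in DKO (16 contacts, 5.05, 2.89 to 8.21) that matched. Itgb1, the common β chain, had a WT contact from inside the gene over 50 kb (17 contacts, 4.60, 2.68 to 7.36) and in DKO its nearest anchor was 1306 kb away. Dst, for dystonin, a hemidesmosome plaque protein in its epithelial form, had 2 WT pixels with an anchor inside its 401 kb and none in DKO. The shorter of these joined points within the gene over 45 kb (18 contacts on 5.38 expected, 3.35, 1.98 to 5.29). Its right anchor (chromosome 1, 34160001 to 34165000) holds an annotated start site internal to Dst, the only start site in the promoter table, among those of 24 members, that lay inside an anchor. The 250 bases before that start, on the plus strand of GRCm38 (chr1:34160010-34160259), are shown because they lie at that WT anchor, from RefSeq 5′ to 3′ with CpG in capitals.
Dst internal promoter: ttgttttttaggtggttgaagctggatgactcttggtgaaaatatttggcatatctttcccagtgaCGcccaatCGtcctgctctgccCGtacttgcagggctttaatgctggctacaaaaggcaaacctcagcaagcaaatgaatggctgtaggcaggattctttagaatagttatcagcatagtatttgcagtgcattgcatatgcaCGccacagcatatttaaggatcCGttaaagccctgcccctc
They hold 5 CpG, where the median of all promoters is 6. The other Dst start in the table had 22 CpG and lay 103 kb from the nearest WT anchor.

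The laminins are trimers of an α, a β and a γ chain, and 1 of the 5 genes was at a pixel in WT and 2 in DKO. Lama5, the α5 chain of laminin-511, lies on chromosome 2 (180176373 to 180225904). It had 3 contacts in WT and 1 in DKO, all of 1 pixel and none shared. A WT pixel joined bins inside Lama5 over 35 kb, with 26 contacts on 7.79 expected (3.34, 2.18 to 4.89). These bins lay 3.63 kb from its 3′ end and 5.90 kb from its 5′ end. The next ran from its start side to Rps21 and Cables2 over 35 kb (21 contacts, 3.14, 1.95 to 4.80), and the last from its 3′ side to Osbpl2 over 55 kb (17 contacts, 3.95, 2.30 to 6.32). The anchor of this last pixel on the Lama5 side also lay within 10 kb of the other end of Osbpl2. The data cannot assign it to Lama5. The DKO pixel ran over 85 kb from the 3′ side of Lama5 to the same genes Rps21 and Cables2 (15 contacts, 5.27, 2.95 to 8.70). Contacts with Rps21, a ribosomal protein gene, were thus listed in both libraries, from opposite ends of Lama5. Adrm1, a proteasome subunit gene, had an end in the bin at the 3′ side. The start of Lama5 was 5.86 kb from a WT anchor and 29.1 kb from the nearest DKO anchor. Its upstream 250 bases on the minus strand (chr2:180225860-180226109) hold 19 CpG, and are shown because, among the members with a WT pixel at a gene end and a start in the promoter table, this start was the closest to a WT anchor.
Lama5 promoter: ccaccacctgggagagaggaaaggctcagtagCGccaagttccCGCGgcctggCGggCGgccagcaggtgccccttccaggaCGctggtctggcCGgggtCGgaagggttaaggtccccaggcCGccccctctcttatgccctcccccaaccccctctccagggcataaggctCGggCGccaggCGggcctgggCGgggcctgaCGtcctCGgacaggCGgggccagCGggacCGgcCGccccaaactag

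Lamc1, for the γ1 chain found in most laminins, had no WT anchor within 212 kb. In DKO 1 pixel had an anchor in the bin holding an end of Lamc1. Its 18 contacts on 2.02 expected gave 8.90 (5.28 to 14.1), the highest enrichment among the member pixels of both lists. The highest of its 4 FDR values was 1.02e-05. In DKO the highest FDR was near the limit of 0.1 for Lama5 (0.0869), Frem2 (0.0839) and the 185 kb pixel of Cd151 (0.0892). In WT it was 0.0999 for a pixel inside Itgb1. Lama3, Lamb1 and Lamb3 had no pixel at an end. Lama3, the α3 chain of laminin-332, had anchors inside the gene at 6 WT and 4 DKO pixels. The contact in both lists ran to Ankrd29 over 165 to 180 kb and had at most 28 contacts in WT (6.34, 4.22 to 9.17) and at most 21 in DKO (4.99, 3.09 to 7.63). The 4 pixels of it listed in both had DKO/WT ratios of 0.582 to 1.03, and each interval included 1.

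Of the 4 collagen genes only Col7a1, whose product forms the anchoring fibrils under the epidermis, was at a pixel, in WT. That pixel ran over 65 kb to a bin with ends of Shisa5, Trex1 and Atrip and had 18 contacts (3.96, 2.35 to 6.27). It belonged to a contact of 5 pixels whose DKO counterpart lay 25.1 kb from Col7a1, and Pfkfb4 and Ucn2 had ends closer to the anchor. Col4a1 and Col4a2 encode the chains of type IV collagen and lie head to head on chromosome 8, so that their 5′ ends overlap (11312889 for Col4a1 and 11312805 for Col4a2). Neither had a pixel at an end. A WT contact of 2 pixels ran from inside Col4a1 to inside Col4a2, across the shared 5′ ends, over 140 kb (20 contacts, 4.72, 2.88 to 7.30) and 130 kb (19 contacts, 4.65, 2.80 to 7.27), and DKO listed none there. DKO had 1 pixel from inside Col4a2 towards Rab20 over 50 kb (21 contacts, 3.37, 2.09 to 5.16). Col18a1, whose C-terminal fragment is endostatin, had anchors inside the gene in both lists. Its contact with the Pofut2 region was shared, with up to 32 contacts in WT over 120 kb (7.57, 5.18 to 10.7) and up to 21 in DKO over 125 kb (4.95, 3.06 to 7.56). These were different pixels. The pixels of it listed in both had DKO/WT ratios of 0.86 (0.43 to 1.71) and 0.81 (0.40 to 1.60).

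Among the other matrix genes, 4 of 11 were at a pixel in WT and 6 in DKO, with 22 and 18 pixels, and Sparc and Fbln2 held most of them. Sparc encodes a calcium-binding matrix glycoprotein that binds collagen, on the minus strand of chromosome 11 (55394159 to 55420080). It had 12 pixels in WT and 8 in DKO, in 3 contacts of each list, and all 3 were shared. No other protein-coding gene had an end within 10 kb of these anchors, which lie around the 3′ end of the gene. The shortest contact ran across Sparc to Atox1, a copper chaperone gene, over 40 to 60 kb. Its pixel with the 3′ end (55390001 to 55395000) and the Atox1 bin (55445001 to 55450000) had 41 contacts in WT and 27 in DKO. Expected counts were 5.14 and 4.97, which gave 7.98 (5.73 to 10.8) in WT and 5.44 (3.58 to 7.91) in DKO, a ratio of 0.681 (0.403 to 1.13). The neighbouring pixel at 50 kb went the other way, with 21 contacts in WT and 28 in DKO (ratio 1.26, 0.688 to 2.33). The counts thus shifted between adjoining pixels of 1 contact by no more than their intervals.

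The next contact of Sparc ran the other way over 65 to 75 kb into Fat2, a giant cadherin gene of squamous epithelium. The WT pixel had 18 contacts (3.64, 2.16 to 5.75), and the same pixel in DKO had 20 (3.49, 2.13 to 5.40), a ratio of 0.960 (0.482 to 1.93). DKO listed 2 more pixels there of 30 contacts each. The longest contact reached Slc36a1, an amino acid transporter gene, and had 4 pixels of 15 to 19 contacts over 175 to 185 kb in WT. In DKO it was 1 pixel of 15 contacts over 190 kb (5.42, 3.03 to 8.94), with its far bin 4.32 kb from Slc36a1. The WT pixel of highest enrichment in this contact (16 contacts on 2.27 expected, 7.04, 4.02 to 11.4) holds the start of Slc36a1. The 250 bases upstream (plus strand, chr11:55204090-55204339) are shown because this start lay inside a partner anchor of Sparc.
Slc36a1 promoter: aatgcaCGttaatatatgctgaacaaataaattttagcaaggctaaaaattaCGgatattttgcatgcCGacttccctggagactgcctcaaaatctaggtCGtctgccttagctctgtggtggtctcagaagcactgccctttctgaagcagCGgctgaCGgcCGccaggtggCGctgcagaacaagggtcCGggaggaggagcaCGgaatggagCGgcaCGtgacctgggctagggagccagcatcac
They hold 12 CpG and 1 forward match to a loose 12-base form of the core bound by CTCF, the protein at many loop anchors. The form requires CC, then any 3 bases, AG, any 2 bases and GGC. The matched letters are CCGCCAGGTGGC, which begin 87 bases before the start. On both strands, with overlaps counted, 7.17% of all 32851 promoters of 250 bases hold a match, and 4 of the 33 promoters of members do. A match is a description of letters and not a binding site.

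Fbln2 and Fbln1 encode fibulins, secreted glycoproteins of basement membranes and elastic fibres. Fbln2 lies on the plus strand of chromosome 6 (91212460 to 91272540) and had 8 pixels in WT and 5 in DKO, in 2 contacts of each list, both shared. They left the region of its 3′ end in opposite directions. The first crossed Fbln2 to Hdac11, a histone deacetylase gene, over 100 to 120 kb. Its strongest pixel had 24 contacts in WT on 3.32 expected (7.22, 4.63 to 10.8), and the strongest in DKO had 15 on 2.82 (5.31, 2.97 to 8.76), 1 bin away. The 3 pixels of this contact in both lists had 20, 16 and 22 contacts in WT and 13, 15 and 14 in DKO. Their ratios were 0.667 (0.305 to 1.41), 1.10 (0.504 to 2.37) and 0.725 (0.343 to 1.48), so that no interval excluded 1.

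The other contact of Fbln2 ran over 130 to 135 kb to Wnt7a, a WNT ligand gene. The pixel in both lists (91280001 to 91285000 and 91410001 to 91415000) had 22 contacts in WT and 24 in DKO. Expected counts were 3.70 and 3.47, enrichment 5.95 (3.73 to 9.01) and 6.92 (4.43 to 10.3), and the ratio 1.16 (0.624 to 2.17). The pixel of the contact with the most contacts in WT, 29 at 9.40 times expected over 125 kb, lay 12.5 kb from Fbln2 and outside the 10 kb limit. The far bin holds the start of Wnt7a. The 250 bases upstream of it (minus strand, chr6:91411354-91411603) are shown because that start lay inside the anchor of this contact in both libraries.
Wnt7a promoter: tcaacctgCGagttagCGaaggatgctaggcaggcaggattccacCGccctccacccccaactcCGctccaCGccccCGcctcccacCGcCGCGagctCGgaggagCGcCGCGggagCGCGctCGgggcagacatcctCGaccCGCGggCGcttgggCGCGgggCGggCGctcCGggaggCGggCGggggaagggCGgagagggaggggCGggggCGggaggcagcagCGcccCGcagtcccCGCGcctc
This stretch holds 34 CpG, and no match to the motif above.

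Fbln1, on chromosome 15 (85205949 to 85286294), stood at 11.3 kb in both lists, just past the limit. Its contacts were chosen for description after they were seen, and also run to a Wnt7 gene. It had 8 pixels with an anchor inside the gene in each list, in 2 contacts of each, and all were shared. One ran over 310 to 320 kb to the bin that holds an end of Wnt7b, another WNT ligand gene. The pixel over 315 kb had 41 contacts in WT on 3.67 expected (11.2, 8.02 to 15.2) and 27 in DKO on 3.80 (7.10, 4.68 to 10.3), a ratio of 0.635 (0.376 to 1.06). The next pixel had 28 and 25 contacts and a ratio of 0.831 (0.465 to 1.48). The other contact ran upstream towards Ribc2 over 75 to 110 kb, with up to 35 contacts in WT and up to 23 in DKO. These maxima were at different pixels. The pixel of this contact in both lists, over 95 kb, had 31 contacts in WT and 23 in DKO. Its enrichment was 5.493 in WT and 5.491 in DKO, a ratio of 0.9996 (0.557 to 1.77). Both fibulin genes therefore had a contact to a Wnt7 gene from the 3′ part of the gene or just past it, in the direction of transcription, and a shorter contact to the opposite side.

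**Figure D3:**
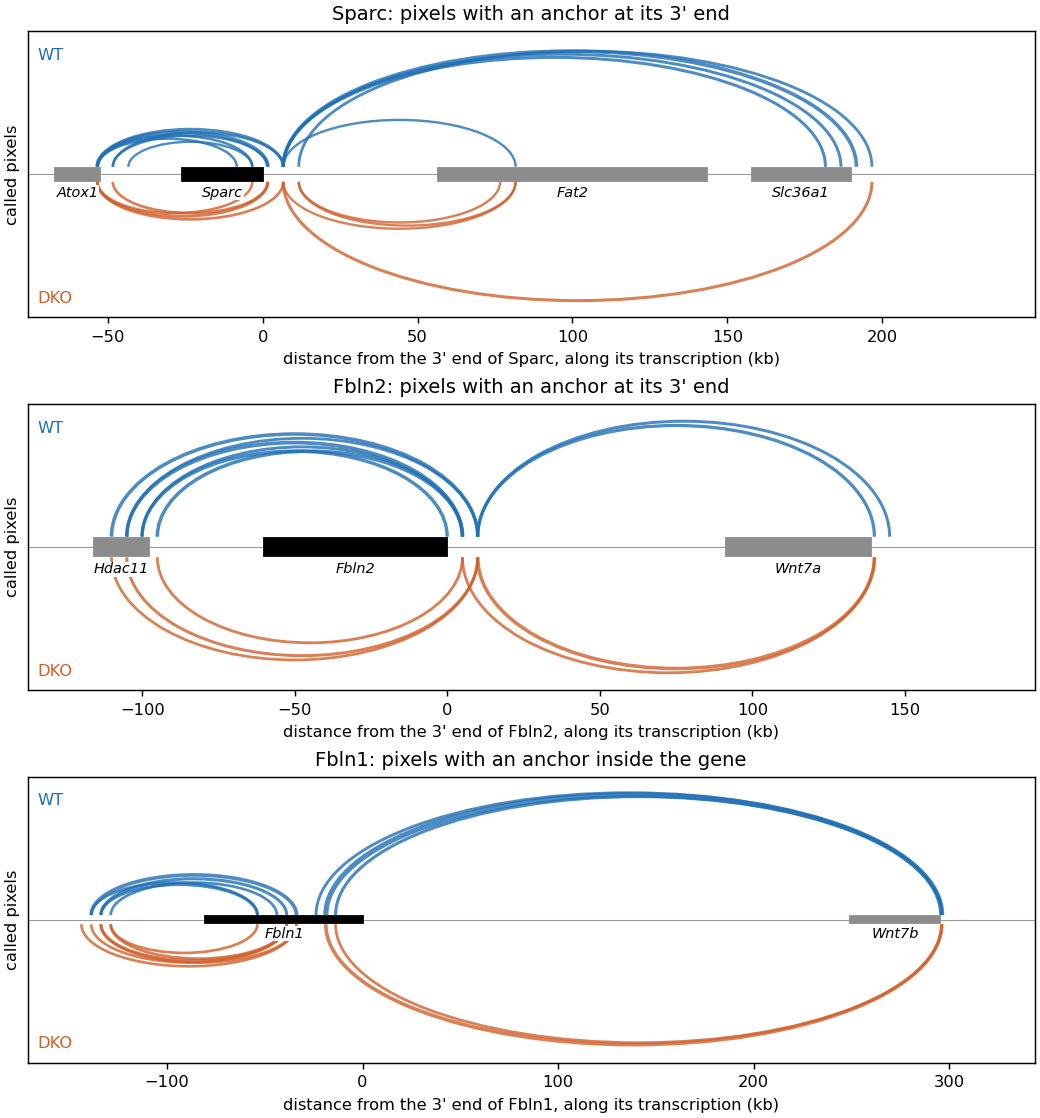
Called pixels at Sparc, Fbln2 and Fbln1 drawn as arcs between bin centres, WT above and DKO below, against the distance in kb from the 3′ end of the gene along its transcription; black bars are the gene, grey bars partner genes, and thicker arcs have higher enrichment. Sparc has contacts to Atox1, Fat2 and Slc36a1, Fbln2 to Hdac11 and Wnt7a, and Fbln1 to Wnt7b, each in both libraries.

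Thbs1, for thrombospondin-1, an adhesive glycoprotein that activates TGF-β, had the longest member contact. Its anchor held an end of the gene on chromosome 2 (118110001 to 118115000). The pixel spanned 570 kb with 19 contacts in WT (2.51 expected, 7.57, 4.56 to 11.8) and 575 kb with 17 in DKO (2.74 expected, 6.21, 3.62 to 9.95), with far bins 1 bin apart that held no protein-coding gene. Fras1 encodes a large protein of the Fraser complex, which joins epidermis and dermis. It had 2 DKO pixels over 505 and 510 kb to Mrpl1, of 16 and 14 contacts (both 7.23). The WT counterpart over 500 kb had 12 contacts, stood at 5.08 (2.62 to 8.87) and lay 14.7 kb from the nearest end of Fras1. Frem2, of the same complex, had 1 DKO pixel over 50 kb (17 contacts, 3.55, 2.07 to 5.68), 8.59 kb from its start side. Fn1, for fibronectin, had 1 DKO pixel over 475 kb to a bin without a protein-coding gene (16 contacts on 2.99 expected, 5.36, 3.06 to 8.70), and in WT its nearest anchor was 1062 kb away. Tnc, for tenascin-C, had 1 WT pixel over 265 kb (11 contacts on 1.44 expected, 7.63, 3.81 to 13.7), and in DKO its nearest anchor was 1190 kb away. Nid1, Hspg2, Npnt and Fbln1 had no pixel at an end. Npnt encodes nephronectin, a ligand of α8β1 integrin.

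Contacts over 400 kb were 4 of 19 in DKO (Lamc1, Fn1, Thbs1 and Fras1) and 1 of 17 in WT (Thbs1). Over the whole lists they were 5.76% of DKO and 7.06% of WT contacts. Of the 4 in DKO, Lamc1 and Fn1 had no WT counterpart, and each rested on a single pixel.

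**Figure D4:**
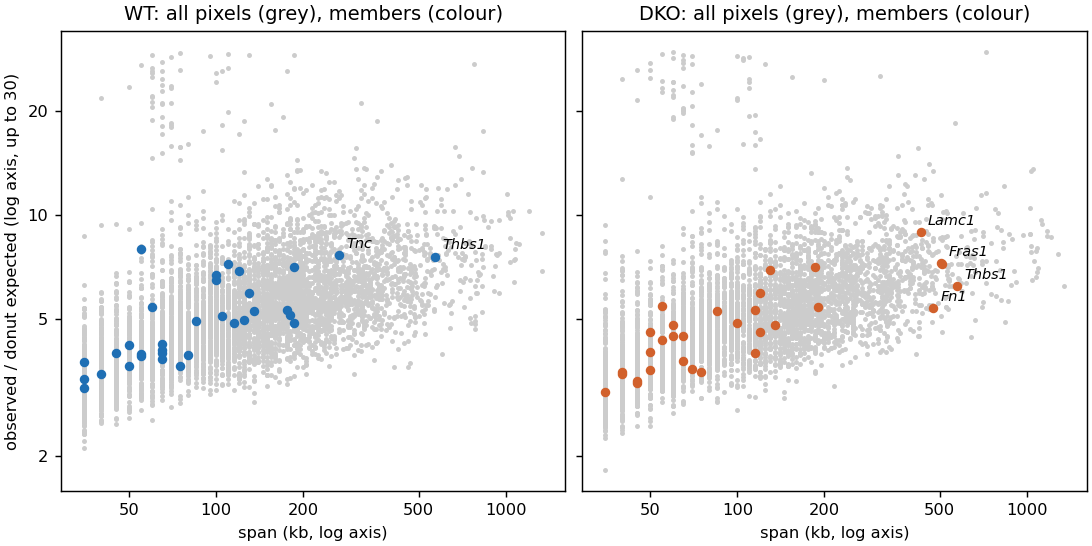
Enrichment (log axis, pixels up to 30 times expected) against span in kb (log axis) for all pixels in grey and member pixels in colour, WT left and DKO right. Member pixels lie within the spread of all pixels, and those over 250 kb are labelled.

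The side of the gene at the anchor could be read for 24 members whose strand is in the RefSeq promoter table. Of these, 23 are over 25 kb long, so that their ends can be told apart. The 3′ end was within 10 kb of an anchor in either list for 7 (Col7a1, Fbln2, Itga2, Itga3, Lama5, Sparc and Tnc) and the 5′ end for 2 (Lama5 and Frem2). Over 6813 genes of that length with a strand, 17.2% had an anchor at the 3′ end and 19.0% at the 5′ end. Itgb4, Plec, Lamc1, Fn1, Thbs1 and Fras1 were also at a pixel, but their strand is not in that table. They are therefore outside this count. Among the few members counted, anchors were thus at 3′ ends more often than at 5′ ends. The count has no test, and the members left out could change it.

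At 11 pixels listed in both libraries and at a member (Sparc, Fbln2, Itgb4 and Plec), DKO over WT enrichment had a median of −0.07 on the log2 scale (95% interval −0.55 to 0.22). Over all 1940 such pixels the median was −0.02. The ratio was above 1 at 4 pixels and below 1 at 7, from 0.667 to 1.26, and no interval excluded 1. These pixels share anchors and are not independent, and the counts leave room for differences of the size of those intervals.

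Of 74 other genes of the pathway, 28 (37.8%) were at a pixel in either list, beside the 28.3% of all genes. In WT they were 24 and in DKO 17, where 21.2% and 20.1% of all genes were. The lists below are small, and their counts were not tested. Of 24 other integrin and adhesion genes 10 were at a pixel, 7 in WT and 8 in DKO. Itgb5, the β5 chain, had 6 WT and 5 DKO pixels, with up to 34 contacts in WT (7.80 times expected over 125 kb). Pxn, for the focal adhesion adaptor paxillin, had 4 in each, with up to 42 contacts in DKO (3.98 over 35 kb). Ilk had 1 WT and 3 DKO pixels, Dag1 3 WT pixels, Sdc1 2 and 1, and Cd44 2 DKO pixels. None of the 7 other laminin and netrin genes was at a pixel in either list. Of 14 other collagen genes 5 were in WT and 1 of them in DKO. Col14a1 had 5 WT and 3 DKO pixels, with 26 contacts at 6.51 times expected over 250 kb in DKO, Col12a1 had 3 WT pixels (15 contacts, 7.69 times expected, over 925 kb at the strongest), and Col16a1, Col27a1 and Col6a3 had 1 each in WT. Of 29 other matrix and matrix-processing genes 12 were in WT and 8 in DKO. The most pixels belonged to Bmp1, a procollagen protease (5 and 5), and the gelatinase gene Mmp2 (6 and 4), whose strongest WT pixel had 24 contacts at 10.7 times expected over 180 kb. Thbs4 (4 and 2), Postn (4 and 1) and Smoc1 (2 and 2) were in both lists and Agrn, for agrin, in DKO alone (3 pixels).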

How the data were processed

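The authors' lists of enriched 5 kb pixels name juicer_tools 1.22.01, per the file headers. Juicer and the build GRCm38 (mm10) are named per the submitters' processing notes. The series' design text says that sorted cells were crosslinked for 10 minutes in 2% formaldehyde; libraries were read as pairs of 150 bp, per the labels' protocols. The aligner is not given in the sources used here, nor are read filters and depth. The authors deposited for each pixel the raw observed count, 4 expected counts as a signal on the same scale, a score numbering the class of each expected count, and 4 q-values (FDR), all under 0.1.

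All 32 members were found in a RefSeq gene table (GRCm38.p6), which gave the gene ends, and 24 in a RefSeq promoter table of the same build, which gave start sites. Pixels were joined by single linkage at 20 kb and placed at genes within 10 kb of a bin. Every member at a pixel was named. Intervals are exact 95% intervals (Poisson, Clopper-Pearson for shares, conditional binomial for ratios, order statistics for medians). The Poisson and ratio intervals cover counting error only. Those for shares and medians treat the members, contacts or pixels as a random sample and hold no counting error of single pixels. All treat the units as independent, and none covers replicate error. Placement and linkage were tested on simulated data. Python 3.11.15, numpy 2.4.6, pandas 2.3.3 and scipy 1.17.1 were used. The members and lists were chosen with earlier results of these data known. Proteins and anchor sequences were not analysed here. The far anchor of the Lamc1 contact is not reported here.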

Additional observations from a re-analysis of the deposited data

How the results depend on the processing

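No paired analysis was possible because there is a single library per genotype, so that nothing was tested. Of 132 values recomputed, 73 stayed within 1.5 times for counts, or within the interval for medians, and 59 moved beyond it; the cause of each shift was not tested. The median log2 ratio of DKO over WT at member pixels in both lists stayed below 0 with each expected count, and its interval included 0 with the donut count. With gene ends within 5 kb (16.3% of all genes in WT and 15.9% in DKO), 1 member was found only in the WT list and 2 only in the DKO list, on 17 DKO pixels. With gene ends inside the bin, 5 members were in WT (9.44% of all genes), 4 in DKO (8.99%), 3 in both, 6 in either and 1 in DKO alone, so that the order of the libraries turned, with 6 pixels and 5 contacts in each list, of which 5 in WT and 3 in DKO were shared. Within 20 kb (28.1% and 26.1% of all genes), 4 members were in WT alone on 50 WT pixels.

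At an FDR under 0.01 in all neighbourhoods, 5 members were in WT (10.8% of all genes), 8 in DKO (9.51%) and 3 in both, with 15 WT pixels in 7 contacts and 12 DKO pixels in 9, 3 of each shared. With at least 20 observed counts, 6 members were in WT (10.6% of all genes), 6 in DKO (9.47%), 5 in both, 7 in either, 1 in WT alone and 1 in DKO alone, so that the excess of members in DKO was gone; there were 17 and 15 pixels and 8 contacts in each, 5 shared in WT and 6 in DKO. Without weak single pixels (13.8% and 12.1% of all genes), 4 members were in both, with 11 contacts in each list, 7 and 6 of them shared. With start sites alone, known for 24 members, 2 were in WT (Dst and Lama5) and 2 in DKO (Cd151 and Frem2). Of the 17492 genes with a start, 14.3% were in WT and 14.1% in DKO, above the shares of these 24. Itgb4, Plec, Lamc1, Fn1, Thbs1 and Fras1, at a pixel by gene ends, had no known start and could not be counted. The counts were 4 in either, 2 in DKO alone and 0 in both. They rested on 3 WT and 2 DKO pixels that formed 3 and 2 contacts, 0 of them shared. Sharing at the same pixel alone left 7 WT and 6 DKO contacts shared. Median enrichment, higher in WT with the donut and bottom-left expected counts, was higher in DKO with the others: 3.96 in WT and 4.17 in DKO with the horizontal expected count, 3.61 in WT and 3.81 in DKO with the vertical expected count and 3.39 and 3.51 with the highest of the 4. An alternative chosen after seeing the data, keeping only anchors to which the member had the nearest gene end, left out Itgb4, Col7a1, Cd151 and, in DKO, Lama5. Depth limits the comparison of single pixels: at 22 contacts in each list, the interval of the Itgb4 ratio ran from 0.617 to 2.21.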
